A study of Mus musculus with 6 samples.

Results

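Interferon-induced GTPases of the guanylate-binding protein (Gbp) and immunity-related GTPase (Irg) families were examined in the colon epithelium of mice fed UDCA (ursodeoxycholic acid), a bile acid given to patients with cholestatic liver disease. The 9 genes were Gbp2, Gbp3, Gbp4 and Gbp7 of the Gbp family and Igtp, Irgm1, Irgm2, Iigp1 and Ifi47 of the Irg family. All probe sets that the platform annotation assigns to one of these symbols alone were taken, which gave 11 of 22626 probe sets and 8 of 12393 genes. Gbp4 had no probe set of its own and shares 1 with Gbp8. The genes were chosen because differences between UDCA and control pools, and high levels in 1 control pool, had been seen in these same values, so the values below are a description and carry no test.

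The tested animals were 6 mice on a diet with 0.4% UDCA and the comparison animals were 6 mice on a standard diet; the sources used here give neither strain nor age nor duration. Each pool held RNA of 2 mice, and each of the 3 UDCA pools and 3 control pools was hybridised to 1 Affymetrix array, so a pool's level cannot be assigned to one of its animals or to both. The labels also carry the tag IEC-6, a rat intestinal cell line, beside mouse colon epithelium. In these arrays 13 of 13 epithelial markers lay above the median level of the probe sets, led by the keratin gene Krt8 with a mean signal of 10500. In tissue RNA, fewer cells of a type and less RNA per cell cannot be told apart.

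Interferons induce both families in most cell types, epithelium included. Interferon-gamma acts on promoters through gamma-activated sites, and type I interferons act through interferon-stimulated response elements, which IRF9 and IRF1 can bind. The Gbp proteins gather on the vacuoles of intracellular bacteria and parasites and on cytosolic bacteria, and promote inflammasome activation. Among the Irg proteins, Iigp1 (also called Irga6) and Ifi47 (Irgd) are effectors that load onto such vacuoles, while Irgm1, Irgm2 and Igtp (Irgm3) sit on the cell's own membranes and hold the effectors in their inactive state.

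The promoter windows of 5 genes are printed as examples of the patterns described below: Gbp2 and Gbp7 were low in all UDCA pools, and Igtp, Irgm2 and Irgm1 were high in 1 control pool. Gbp3 and Ifi47 were high in that pool too, by larger folds, and their windows are not printed. These patterns overlap. Gbp7 was also high in that control pool, and Irgm2 was lower in all UDCA pools than in all control pools. The Ifi47 window held no match. Each window, from RefSeq on GRCm38.p6, runs from 250 bases before to 50 bases after the annotated start, 5′ to 3′ on the gene's strand. Capitals mark the matches to TTCNNNGAA, the letters of a gamma-activated site, and to GAAA followed by any 2 bases and GAAA, the core letters of an interferon-stimulated response element. Both strands were searched, and a response element on the opposite strand reads TTTC, any 2 bases and TTTC here.
Gbp2 (chr3:142620413-142620712, plus strand): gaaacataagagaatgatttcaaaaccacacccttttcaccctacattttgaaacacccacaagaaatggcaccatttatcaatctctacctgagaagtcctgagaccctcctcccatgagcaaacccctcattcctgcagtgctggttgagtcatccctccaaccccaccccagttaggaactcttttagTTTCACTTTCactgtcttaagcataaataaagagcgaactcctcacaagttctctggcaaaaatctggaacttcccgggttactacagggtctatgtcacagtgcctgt
Gbp7 (chr3:142530086-142530385, plus strand): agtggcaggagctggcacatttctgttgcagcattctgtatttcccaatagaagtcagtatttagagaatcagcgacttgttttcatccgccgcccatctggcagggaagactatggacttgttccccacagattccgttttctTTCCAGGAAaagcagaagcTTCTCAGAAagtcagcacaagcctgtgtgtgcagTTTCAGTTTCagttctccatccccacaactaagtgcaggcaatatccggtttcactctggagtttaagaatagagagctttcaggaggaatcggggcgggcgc
Igtp (chr11:58199306-58199605, plus strand): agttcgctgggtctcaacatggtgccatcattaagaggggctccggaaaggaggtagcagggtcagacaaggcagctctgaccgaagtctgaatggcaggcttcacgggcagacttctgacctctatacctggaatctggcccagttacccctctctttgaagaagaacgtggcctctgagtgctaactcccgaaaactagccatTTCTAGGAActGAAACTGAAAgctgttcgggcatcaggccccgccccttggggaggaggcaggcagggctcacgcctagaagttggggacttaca
Irgm2 (chr11:58214727-58215026, plus strand): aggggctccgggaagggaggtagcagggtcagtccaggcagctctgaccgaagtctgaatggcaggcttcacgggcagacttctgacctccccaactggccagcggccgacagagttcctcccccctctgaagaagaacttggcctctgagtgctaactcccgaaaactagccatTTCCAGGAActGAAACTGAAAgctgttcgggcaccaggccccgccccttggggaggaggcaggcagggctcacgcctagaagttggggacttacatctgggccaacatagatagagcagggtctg
Irgm1 (chr11:48871371-48871670, minus strand): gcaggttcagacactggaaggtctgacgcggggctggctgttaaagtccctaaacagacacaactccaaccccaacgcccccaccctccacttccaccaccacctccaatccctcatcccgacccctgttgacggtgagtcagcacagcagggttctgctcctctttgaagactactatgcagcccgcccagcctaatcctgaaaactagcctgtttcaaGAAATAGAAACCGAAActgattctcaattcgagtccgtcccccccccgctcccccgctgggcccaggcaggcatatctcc

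Windows were available for 7 of the 9 genes. The response element letters occurred in 6 of these 7 genes, against 3.44% of all 32851 promoter windows of this length. In the windows printed above they lay 59 to 50 bases before the start in Gbp2, 53 to 44 before it in Gbp7, 34 to 25 in Igtp and 64 to 55 in Irgm2. Irgm1 had a pair of overlapping matches from 30 to 15 bases before its start. In Gbp3, which has 2 annotated starts, a pair of overlapping matches lay 45 to 30 bases before the first one. The gamma-activated site letters occurred in 3 of the 7 genes, against 8.3% of all windows, namely in Gbp7, Igtp and Irgm2. Gbp7 held this motif at 106 to 98 and again at 87 to 79 bases before its start. Igtp and Irgm2, which are neighbouring genes on chromosome 11, each held it 2 bases ahead of their response element, and their windows share an identical run of 61 bases. The Ifi47 window held neither set of letters. A match is a description of the letters and shows no binding.

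Gbp2, which in mice reaches the vacuole of the parasite Toxoplasma, had signals of 115, 37.6 and 89.8 in UDCA pools 1+2, 3+4 and 5+6, against 173, 254 and 337 in control pools 1+2, 3+4 and 5+6. All 3 UDCA pools lay below all 3 control pools, and UDCA pool 3+4 was the lowest. The means were 80.9 ± 39.6 in UDCA pools and 254 ± 81.8 in control pools (SD, n = 3 each), and the difference of mean log2(signal + 16), which is the log2 scale used throughout, was -1.53 (SE 0.24). A second probe set, of the Affymetrix class whose probes may also bind related transcripts, had 64.5, 33.7 and 62.2 in UDCA pools, against 99.5, 212 and 279 in control pools. Its groups also did not overlap, and its log2 difference was -1.54 (SE 0.24). The SEs of log2 differences come from limma, which draws each variance toward that of probe sets of similar level. They do not measure a probe set's own spread between pools alone.

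Gbp7, which in mouse macrophages helps assemble the NADPH oxidase, had signals of 66.0, 31.4 and 38.0 in UDCA pools 1+2, 3+4 and 5+6, against 78.0, 123 and 261 in control pools 1+2, 3+4 and 5+6. The groups did not overlap, although UDCA pool 1+2 and control pool 1+2 came close to each other. The log2 difference was -1.37 (SE 0.25), with means of 45.1 ± 18.4 in UDCA pools and 154 ± 95.5 in control pools (SD, n = 3 each). A second, dimmer probe set had 27.5, 11.7 and 18.9 in UDCA pools, against 43.7, 53.3 and 143 in control pools, and a log2 difference of -1.32. UDCA pool 3+4 was again the lowest and control pool 5+6 the highest, as in both Gbp2 probe sets.

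Gbp3, the neighbour of Gbp7 on chromosome 3, was dim, with signals of 14.1, 36.2 and 11.1 in UDCA pools 1+2, 3+4 and 5+6, against 20.6, 23.3 and 136 in control pools 1+2, 3+4 and 5+6. Its groups overlapped, because UDCA pool 3+4, the lowest pool for Gbp2 and Gbp7, lay above control pools 1+2 and 3+4. Its log2 difference was -0.79. The probe set that Gbp4 shares with Gbp8 had 3.7, 5.3 and 3.4 in UDCA pools, against 8.1, 15.8 and 3.8 in control pools. These are levels near the bottom of the arrays, and control pool 5+6 was not raised there, so nothing can be read for Gbp4.

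The regulators on the cell's own membranes had another pattern. Igtp had signals of 263, 176 and 149 in UDCA pools 1+2, 3+4 and 5+6, against 183, 186 and 977 in control pools 1+2, 3+4 and 5+6. Irgm1, which in mice is needed for resistance to mycobacteria, had 268, 309 and 213 in UDCA pools, against 217, 267 and 784 in control pools. In both genes the UDCA pools spanned the levels of control pools 1+2 and 3+4, and control pool 5+6 lay far above the other 5 arrays. Irgm2 had 97.4, 85.0 and 80.2 in UDCA pools, against 111, 113 and 486 in control pools. Its 5 lower arrays lay within 0.42 log2 units of each other, yet all UDCA pools were below all control pools. The log2 differences were -0.72 (SE 0.29) for Igtp, -0.44 (SE 0.25) for Irgm1 and -0.97 (SE 0.27) for Irgm2. These limma SEs understate the spread of the control pools, which for Igtp had a mean signal of 449 and an SD of 457.

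The effectors followed control pool 5+6 as well. Iigp1 had signals of 134, 52.9 and 48.6 in UDCA pools 1+2, 3+4 and 5+6, against 44.0, 86.0 and 381 in control pools 1+2, 3+4 and 5+6, at its brighter probe set. Its dimmer probe set had 84.9, 31.1 and 35.0 in UDCA pools, against 25.4, 33.6 and 156 in control pools. UDCA pool 1+2 was the second highest array at both. Ifi47 had 64, 38.3 and 53.8 in UDCA pools, against 52.6, 40.4 and 300 in control pools, so its other 5 arrays overlapped fully. The log2 differences were -0.62 (SE 0.32) and -0.18 for the Iigp1 probe sets and -0.67 for Ifi47.

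**Figure D1:**
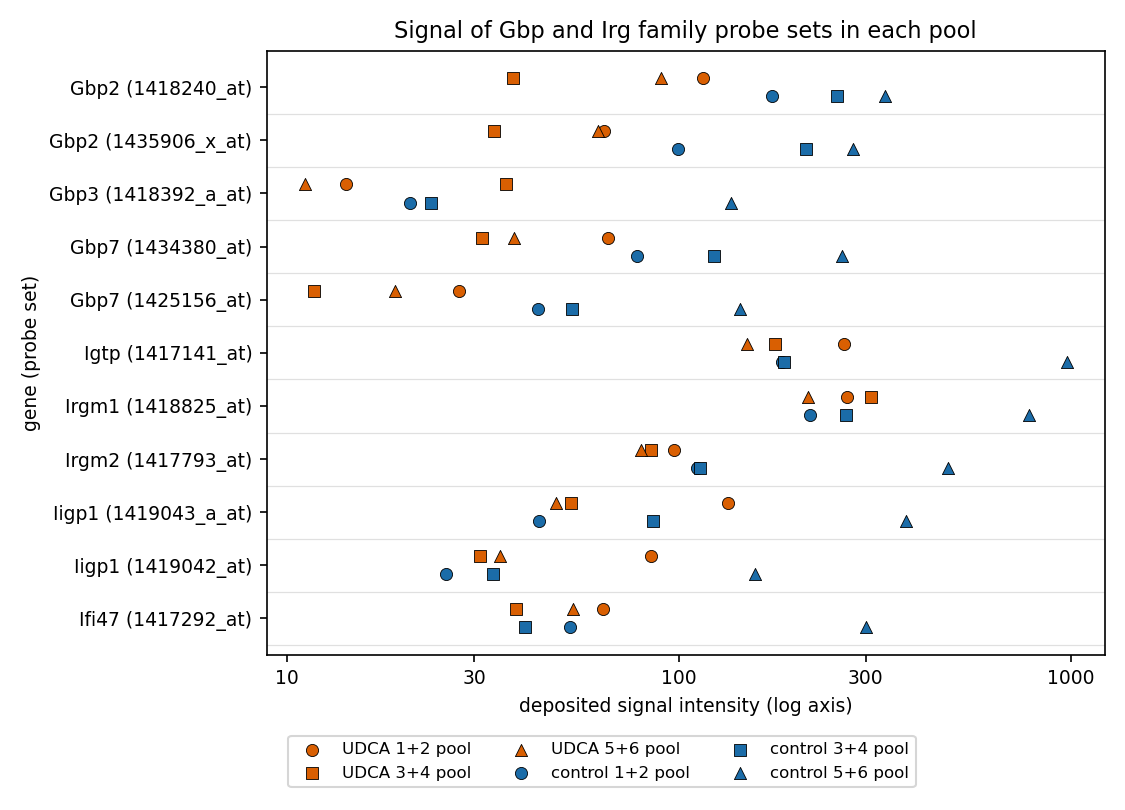
Deposited signal intensity (log axis) of the 11 probe sets in 3 UDCA pools (orange, upper row of each pair) and 3 control pools (blue, lower row); each point is 1 array of RNA from 2 animals. The UDCA points lie below all control points for both Gbp2 and both Gbp7 probe sets and for Irgm2, and control pool 5+6 (blue triangle) is the highest array for every probe set.

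Control pool 5+6 was the highest of the 6 arrays for 11 of 11 probe sets, while 23.1% of all probe sets had their highest signal there. For 9 of 11 it exceeded the mean of control pools 1+2 and 3+4 by over 1 log2 unit, against 1.18% of all probe sets and 1.04% of those above the median level. As folds of signal over the mean of those pools, it was 6.44 for Ifi47, 5.86 for the brighter Iigp1 probe set, 5.29 for Igtp, 4.33 for Irgm2 and 3.25 for Irgm1. In the Gbp family it was 6.17 for Gbp3, 2.60 for the brighter Gbp7 probe set and 1.58 for the brighter Gbp2 probe set. Gbp2 was thus the gene in which this pool stood out least. With only 1 such pool these folds have no replicate check, and they were among the values that chose the genes.

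With all 6 arrays, 11 of 11 probe sets had a negative log2 difference, against 41.3% of all probe sets, and their median was -0.79, beside 0.04 over all probe sets. Without control pool 5+6, 6 of 11 were negative, against 34% of all probe sets, and their median was -0.12, beside 0.10. The 5 Gbp family probe sets stayed negative. Gbp2 had -1.32 and -1.26, Gbp7 had -0.94 and -0.89, and Gbp3 had -0.12 without that pool. Of the 6 Irg family probe sets 1 stayed negative, Irgm2 with -0.31, while Igtp had 0.04, Irgm1 0.11, Ifi47 0.11 and Iigp1 0.16 and 0.46. After each array was centred on its median, Igtp had -0.03 without that pool, so its sign is not fixed, while Irgm1 and Ifi47 had 0.04 each. The centred values without that pool were -1.39 and -1.33 for Gbp2, -1.02 and -0.96 for Gbp7 and -0.38 for Irgm2.

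**Figure D2:**
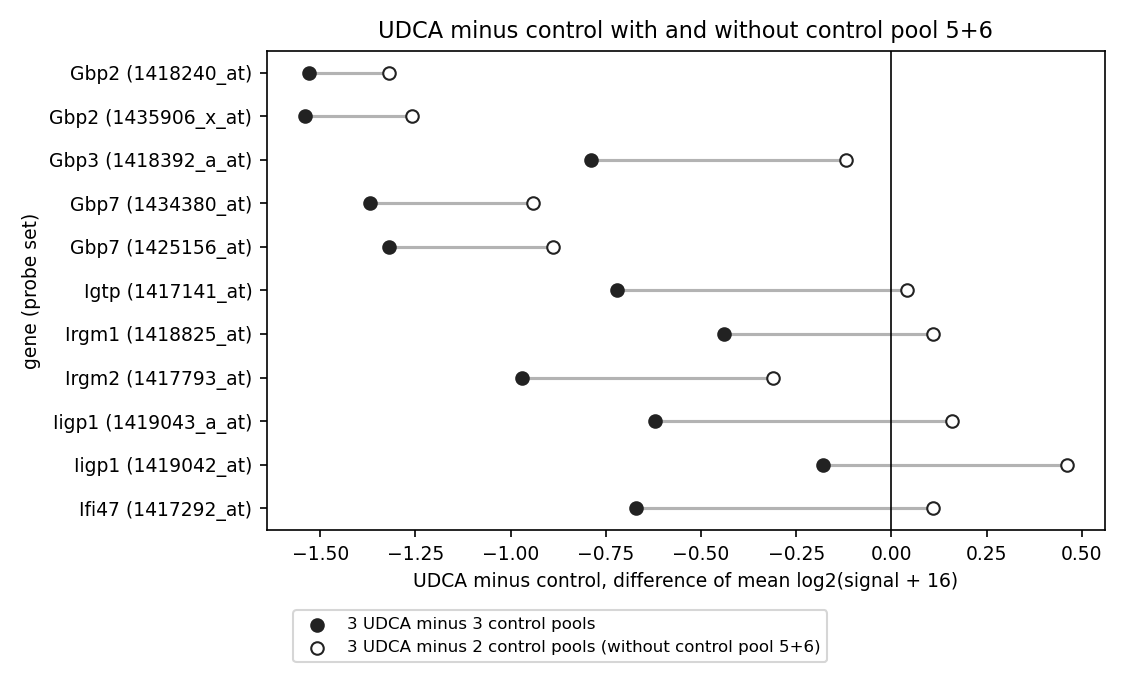
Difference of mean log2(signal + 16), UDCA minus control, for the 11 probe sets with all 3 control pools (filled) and without control pool 5+6 (open); the line joins both values of a probe set and 0 means equal means. Gbp2 and Gbp7 stay below -0.8 without that pool, Gbp3 and Irgm2 lie between -0.31 and -0.12, and the other Irg family values lie between 0.04 and 0.46.

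In the fit across all probe sets above a filter at the median level, 7 of the 11 probe sets (6 genes) were included, since Gbp3, Ifi47 and the dimmer probe sets of Gbp7 and Iigp1 lay below it. Of these 7, 3 passed as lower in UDCA pools, both Gbp2 probe sets and 1 of Gbp7 (limma, Benjamini-Hochberg adjusted over 11313 probe sets), where 0.239% of all probe sets passed as lower. After median centring 0 of the 7 passed in limma, as did 0 of all probe sets in the lower direction (1945 probe sets in either direction had an unadjusted p under 0.05). Groups did not overlap, with UDCA lower, for 5 of 11 probe sets (Gbp2, Gbp7 and Irgm2), where this held for 4.49% of all probe sets. Without control pool 5+6 the same count was 5 of 11, against 6.61% of all. The genes were chosen from this contrast, so none of these counts supports a difference.

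Other interferon-induced GTPases had 8 probe sets, counting the one shared by Gbp8 and Gbp4, and in 4 of these control pool 5+6 exceeded the other control pools by over 1 log2 unit. Mx1, an antiviral GTPase of the dynamin family, had signals of 28.1, 38.8 and 15.2 in UDCA pools 1+2, 3+4 and 5+6, against 19.7, 23.8 and 280 in control pools 1+2, 3+4 and 5+6. Mx2 had 4.9, 17.6 and 5.3 in UDCA pools, against 6.5, 4.3 and 104 in control pools. The probe set of Tgtp1 and Tgtp2, which are Irg genes next to Ifi47, had 86.0, 42.4 and 59.5 in UDCA pools, against 31.6, 49.8 and 251 in control pools. Gbp6, of the Gbp cluster on chromosome 5, had 20.1, 18.9 and 11.4 in UDCA pools, against 9.5, 18.0 and 69.7 in control pools. In these 4 probe sets the UDCA pools overlapped control pools 1+2 and 3+4, and control pool 5+6 was above all others. The other 4 did not share that size of difference. Gbp2b, which lies between Gbp3 and Gbp2, had 9.4, 13.4 and 2.5 in UDCA pools, against 2.7, 5.6 and 18.8 in control pools. Gbp8 had 0.2, 16 and 7.7 in UDCA pools, against 4.0, 8.5 and 10.8 in control pools, and was highest in UDCA pool 3+4. Gm12185 had 20.1, 25.6 and 14.7 in UDCA pools, against 30.3, 30.3 and 29.7 in control pools, so its control pools were level. None of the 8 probe sets lay above the filter.

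**Figure D3:**
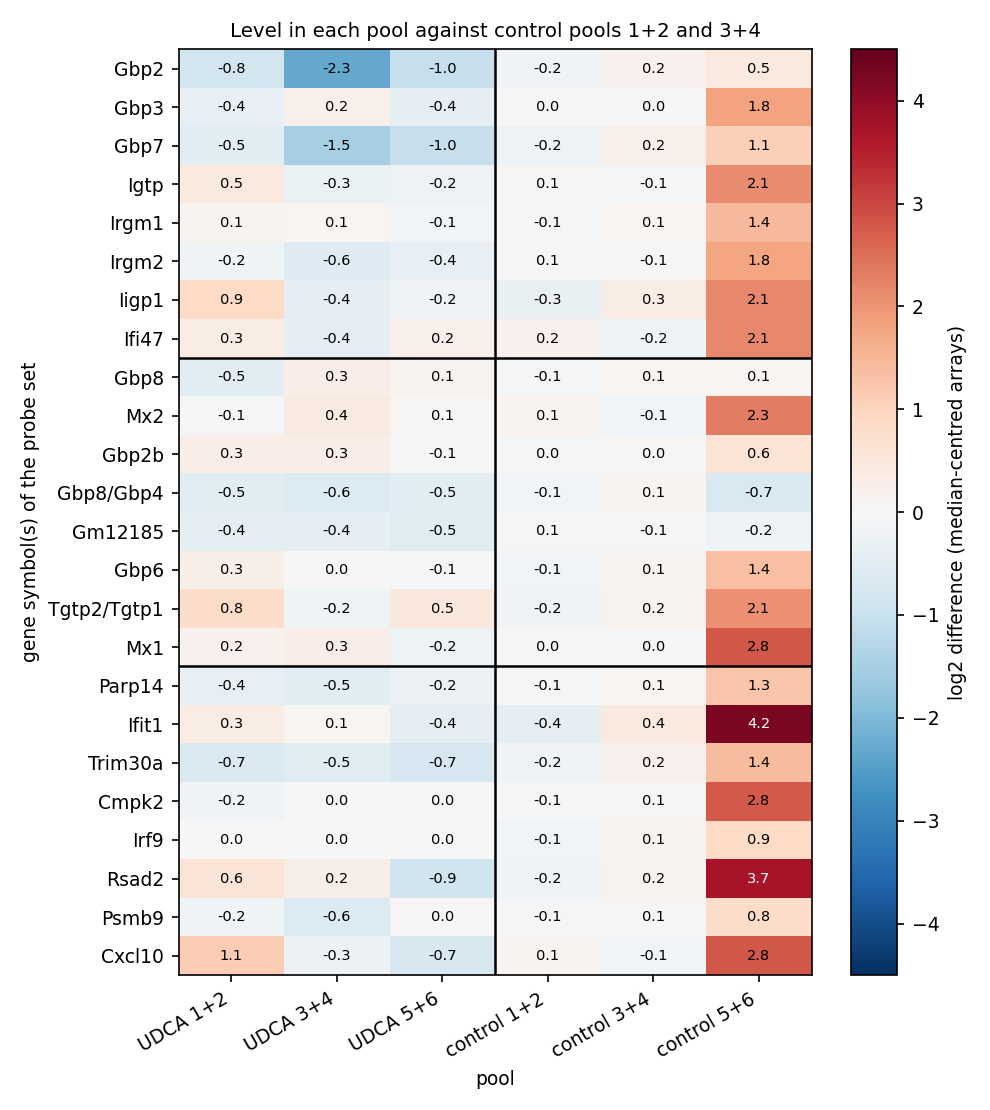
Log2 difference of each pool (columns, UDCA pools left) from the mean of control pools 1+2 and 3+4, on arrays centred on their medians, for the 8 genes with a probe set of their own (top block, brightest probe set), other interferon-induced GTPases (middle block) and the 8 genes most alike in pattern (bottom block); control pools 1+2 and 3+4 mirror each other by construction. Control pool 5+6 is at 0.45 for Gbp2 and 2.15 for Iigp1, while the UDCA pools are at -0.81, -2.32 and -1.04 for Gbp2.

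The interferon genes Ifng, Ifna1, Ifna2 and Ifnb1 were near the bottom of the arrays, with no signal above 27.1. Ifng, which encodes interferon-gamma, had signals of 10.6, 3.0 and 8.2 in UDCA pools 1+2, 3+4 and 5+6, against 2.1, 0.7 and 4.5 in control pools 1+2, 3+4 and 5+6. Its receptor gene Ifngr1 had 806, 980 and 572 in UDCA pools, against 735, 893 and 819 in control pools, and Jak2, a kinase of that receptor, had 352, 402 and 351 in UDCA pools, against 358, 444 and 392 in control pools. The receptor and the kinase overlapped between the groups, and control pool 5+6 was not raised in them. The list of ligands, receptors and transducers had 20 genes above the filter. In 3 of them, Stat2, Irf7 and Irf9, control pool 5+6 exceeded the other control pools by over 1 log2 unit. This held for 1.04% of all probe sets above the filter. Stat2 had 88.5, 94.5 and 60.0 in UDCA pools, against 58.8, 82.6 and 184 in control pools. Irf7 had 256, 294 and 194 in UDCA pools, against 164, 273 and 656 in control pools. Usp18 of this list lay below the filter. It had 48.4, 56.5 and 28.5 in UDCA pools, against 15.6, 36.7 and 501 in control pools. Jak1 and Irf3, also of the type I pathway, were closer to level. Jak1 had 491, 587 and 459 in UDCA pools, against 468, 586 and 605 in control pools, and Irf3 had 614, 742 and 481 in UDCA pools, against 433, 459 and 560 in control pools.

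Limma called 0 of these 20 genes in either direction (5 had an unadjusted p below 0.05). Over all 6768 genes 0.207% passed as lower and 0.443% as higher. The list's median log2 difference was -0.11, beside 0.08 over all genes. The 4 genes with the smallest p were Il15, a cytokine for NK and T cells, Irf1, which activates Gbp and Irg promoters, Socs3, a feedback inhibitor of cytokine receptors, and Il18, an epithelial cytokine that elicits interferon-gamma. Irf1 had signals of 549, 623 and 575 in UDCA pools, against 797, 829 and 1157 in control pools, which did not overlap, and a log2 difference of -0.64 (limma adjusted p = 0.243). Il15, Socs3 and Il18 had -0.71, -0.59 and -0.52, with limma adjusted p-values of 0.232, 0.315 and 0.38. Without control pool 5+6, Il15 and Socs3 fell, with log2 differences of -1.04 and -0.80 (limma adjusted p = 5.83e-04 and 0.0153), as did Irf2, a relative of Irf1, with -0.72 (limma adjusted p = 0.046). In that fit more genes passed in all, 0.827% of all genes as lower and 1.76% as higher. With centring as well, the limma adjusted p-values without that pool were 0.0207 for Il15, 0.0452 for Socs3 and 0.0814 for Irf2. In all 3 control pool 5+6 lay below control pools 1+2 and 3+4, near the UDCA pools.

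Of the type I interferon targets, 19 of 20 genes above the filter had a negative log2 difference, against 2394 of all 6768 genes. Their median was -0.53, beside 0.08 over all genes. The filter uses all 6 arrays, so genes high only in control pool 5+6 could pass it through that pool. Such genes are lower in UDCA pools by construction, so these counts support no difference. Of these 20 genes 1 fell, where 0.207% of all genes passed as lower. It was Trim30a, which restrains inflammatory signalling, with signals of 52.0, 69.6 and 44.3 in UDCA pools, against 71.9, 108 and 304 in control pools. Its log2 difference was -1.11 (limma adjusted p = 0.04; 0.235 after centring), and it did not pass without control pool 1+2 or without UDCA pool 3+4. It lay above the filter only through control pool 5+6, the mean signal of the other 5 arrays being 69.2, and without that pool it was not tested. In 10 of the 20 genes control pool 5+6 exceeded the other control pools by over 1 log2 unit, against 1.04% of all probe sets above the filter. Without that pool the list's median was 0.02 over 16 genes, beside 0.16 over all genes. Of the 16 genes 7 were negative, against 1831 of all 6772 genes. Samhd1, which depletes deoxynucleotides, then fell, with -0.73 (limma adjusted p = 0.0382), where 0.827% of all genes passed as lower and 1.76% as higher.

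The interferon-gamma targets other than GTPases went both ways, with 9 of 20 negative, against 2394 of all 6768 genes. Their median was 0.01, beside 0.08 over all genes. In 5 of the 20 genes control pool 5+6 exceeded the other control pools by over 1 log2 unit, against 1.04% of all probe sets above the filter. Of these 20 genes 2 rose, both of antigen presentation on MHC class II, where 0.443% of all genes passed as higher. Cd74, the invariant chain, had signals of 387, 230 and 556 in UDCA pools 1+2, 3+4 and 5+6, against 55.1, 157 and 244 in control pools 1+2, 3+4 and 5+6, and a log2 difference of 1.38 (limma adjusted p = 0.00654; 0.235 after centring). H2-Aa had a log2 difference of 1.45 (limma adjusted p = 0.0067, and 0.237 after centring), and the groups of both genes overlapped. These p-values rest on variances drawn toward those of other genes. They do not measure the spread between pools of Cd74 or H2-Aa alone. Neither passed without control pool 1+2, where limma called 0 of the pathway genes (31 had an unadjusted p below 0.05). Without control pool 5+6, H2-Ab1 rose as well, with 0.80 (limma adjusted p = 0.0282), and Casp4, the caspase that senses lipopolysaccharide, fell, with -0.73 (limma adjusted p = 0.0456). In that fit 0.827% of all genes passed as lower and 1.76% as higher. With centring as well, limma called 0 interferon-gamma or type I targets in the absence of that pool, while 25 pathway genes in all had an unadjusted p below 0.05.

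A list of autophagy and targeting partners had a median of -0.03 over 16 genes. It holds the conjugation factors Atg3, Atg5, Atg7 and Atg16l1, which in mice are needed for loading Irg and Gbp proteins onto vacuoles, and also genes of degradative autophagy such as Ulk1, Pik3c3 and Becn1. By limma 0 of the 16 passed, and the count with an unadjusted p below 0.05 was also 0. Pik3c3, Ulk1, Trim21 and Atg5 had log2 differences of -0.38, -0.34, -0.31 and 0.23, with limma adjusted p-values of 0.689 to 0.839. Trim21, an interferon-induced ubiquitin ligase, was highest in control pool 5+6, at 211 against 87.2 and 111 in control pools 1+2 and 3+4.

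**Figure D4:**
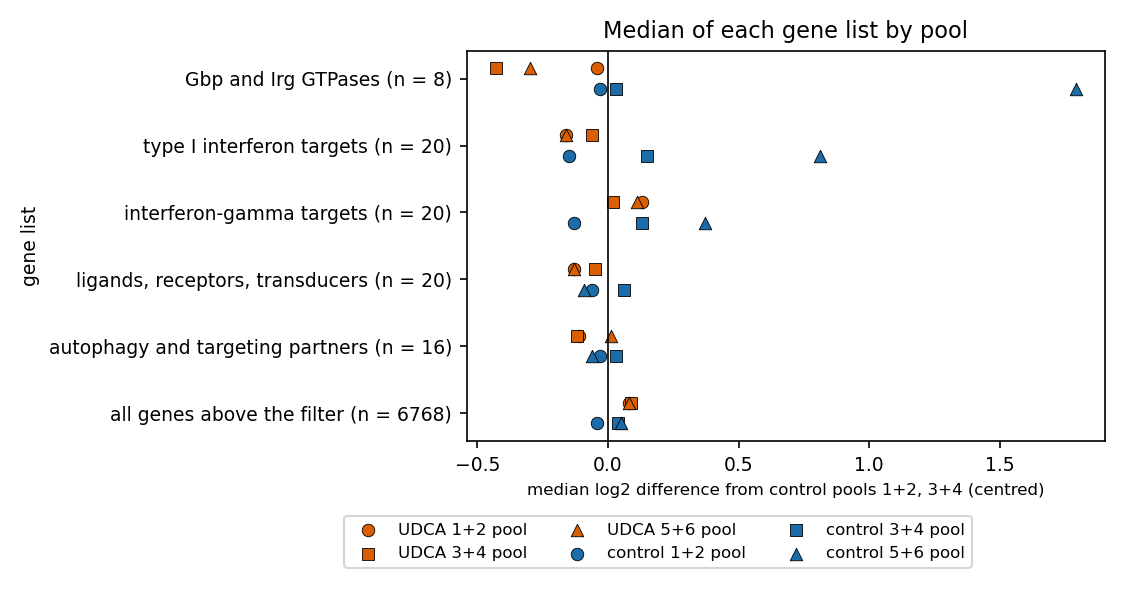
Median log2 difference of each gene list from the mean of control pools 1+2 and 3+4, by pool, on arrays centred on their medians, with the number of genes beside each list. Control pool 5+6 (blue triangle) is at 1.79 for the Gbp and Irg GTPases, 0.81 for type I interferon targets, 0.37 for interferon-gamma targets and 0.05 for all genes above the filter. The sets are unlike, because the GTPases include genes below the filter (6 of 8 lie above it) and the other lists do not. The GTPases were also chosen partly for this pool. Of all 27 type I targets on the array, 16 exceeded the other control pools there by over 1 log2 unit.

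Genes outside both families with the most similar pattern over the 6 pools were sought by Pearson's r with the mean profile of the 8 GTPase genes on centred arrays. The search covered 437 genes above the filter that spanned at least 1 log2 unit. Filter and span use all 6 arrays, so genes high only in control pool 5+6 could enter through that pool. Such genes resemble the GTPase profile by construction. The 8 highest were Parp14, an ADP-ribosyltransferase (r = 0.969), Ifit1, which binds viral RNA ends (0.941), Trim30a (0.934), Cmpk2, a mitochondrial nucleotide kinase (0.93), Irf9, a transcription factor of the type I response (0.925), Rsad2, the antiviral enzyme viperin (0.924), the immunoproteasome gene Psmb9 (0.92) and the chemokine gene Cxcl10 (0.914). These values rest on control pool 5+6, which was the highest array in all 8. Without it 6 of the 8 spanned under 1 log2 unit and were not compared, and the other 2, Rsad2 and Cxcl10, had r = 0.29 and 0.56. Ifit1 had signals of 70.9, 68.6 and 32.7 in UDCA pools, against 31.5, 77.7 and 1432 in control pools.

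Control pool 5+6 lay within the range of the other arrays for the summed T and NK cell, B and plasma cell and epithelial markers. Summed over 18 T and NK cell markers the signal was 334 to 397 in UDCA pools and 304 to 389 in control pools, with 329 in control pool 5+6, and 16 of the 18 had mean signals below 20. Zap70 was the brightest of these. Without it the sums were 175, 213 and 161 in UDCA pools and 132, 147 and 152 in control pools 1+2, 3+4 and 5+6. Summed over 14 myeloid markers it was 2547 to 3747 in UDCA pools and 3156 to 4002 in control pools, with the lowest control value in control pool 5+6. Ctss, which is also induced by interferon-gamma, made up most of that sum, and without it the sums were 746, 833 and 728 in UDCA pools and 744, 844 and 802 in control pools 1+2, 3+4 and 5+6. Over 7 B and plasma cell markers, most of which is Sdc1, a gene that epithelium also expresses, it was 1491 to 2570 in UDCA pools and 1315 to 2090 in control pools, with 2090 in control pool 5+6. Over 13 epithelial markers it was 58471 to 74741 in UDCA pools and 53544 to 66485 in control pools, with 66485 in control pool 5+6. Bright markers rule this sum. Of the 13 markers 2 were highest in control pool 5+6. One was Cdx2, with 672, 499 and 694 in UDCA pools, against 104.5, 256 and 796 in control pools. The fibroblast and endothelial sums, at most 127 and 103 in UDCA pools, were highest in control pool 5+6 at 160 and 107. No marker of these lists was at 0 on any array. Array medians were 68.1 to 87.2 in UDCA pools and 67.4 to 83.8 in control pools, with 83.8 in control pool 5+6. The part of these values in the levels of the GTPases was not tested.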

How the data were processed

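The authors deposited linear signal intensity values, 1 per probe set, for 6 arrays; GCOS, the Affymetrix summary software, is named in the submitters' processing notes, while the sources used here do not state its version, its scaling or detection calls. Per the labels' protocols, Trizol RNA was labelled from 3 µg. Groups came from sample titles. The 64 Affymetrix control probe sets were left out. Of the rest, 20380 had 1 gene symbol in the platform annotation, 691 had several, and 1555 absent from it stay unnamed.

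UDCA minus control was fitted on log2(signal + 16), without further scaling, with limma 3.58.1 in R 4.3.3 (lmFit, eBayes with trend, two-sided, Benjamini-Hochberg, threshold 0.05) on 11313 probe sets, the upper 50% by mean level, from a signal of about 75.8. Genes were represented by their brightest probe set and fitted as 6768 genes. The eBayes step draws each variance toward that of features of similar level. Its SEs and p-values thus do not measure a gene's own spread between pools alone. The added 16 shrinks differences of dim genes. The fit was tested on 5 simulated data sets. With array levels left in, as in the main fit, 91.2% of planted changes of 1 log2 unit passed. False calls were 20.8 per simulation, or 10.2% of calls, more than the threshold of 0.05 allows. With centring 80.6% passed and 5.39% of calls were false. The simulated noise was independent between probe sets, so deviations that many genes share in a pool were absent. The real fit made only 78 calls, so neither share need hold for it. Array medians differ, so centred values stand beside the uncentred ones. For probe sets below the filter no standard error is printed.

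The members, gene lists and the rule for named genes were chosen with earlier results of these data known. The rule names all 9 members, in each list the genes past the threshold or else the 4 with the smallest p, and the 8 genes most similar in pattern; other genes named, among them those called only without control pool 5+6, were chosen after their values were seen. Same-numbered UDCA and control pools come from different animals and did not deviate together (correlations of deviations -0.10, 0.16 and 0.05), so pools were not paired. The number of arrays limits the precision. A table of group summaries by the authors was not used.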

Additional observations from a re-analysis of the deposited data

How the results depend on the processing

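The genes were chosen from this contrast in these same arrays, so a sign kept across alternatives supports no difference. The median log2 difference of the 11 GTPase probe sets was negative in 12 of 12 alternatives. It was -0.79 after centring, -0.80 after quantile normalization and -1.06 and -0.65 with pseudocounts of 1 and 64, and it ranged from -1.20 to -0.12 as single pools were left out, with -0.12 without control pool 5+6 (-0.19 when centred as well). Of 132 recomputed values of single probe sets 10 were positive, and 9 of these lacked control pool 5+6; the other was the dimmer Iigp1 probe set without UDCA pool 3+4. Counts of calls in limma depended on scaling. Of all probe sets, 51 passed as higher and 27 as lower, against 1 and 0 after centring, 1 and 0 after quantile normalization, and 0 and 0 with no filter (1945, 1545 and 1207 at an unadjusted p under 0.05). The upper 25% filter left 14 lower, and centring without control pool 5+6 gave 20 higher. Leaving out single pools gave 2 to 172 higher and 3 to 75 lower: 2 and 3 without control pool 1+2, 25 and 42 without UDCA pool 3+4, 139 and 53 without UDCA pool 5+6, and 172 and 75 without control pool 5+6. Of 76 pathway genes 2 passed as higher and 1 as lower. Both counts were 0 in limma after centring, after quantile normalization, with no filter and with the upper 25% filter (21, 22, 16 and 6 at an unadjusted p under 0.05), and without control pool 1+2 (31). The lower count was 0 without trend (23) and without UDCA pool 3+4 (21), and centring without control pool 5+6 gave 0 higher and 2 lower. Leaving out single pools gave 0 to 3 higher and 0 to 7 lower, the 7 without UDCA pool 5+6, with 6 without control pool 3+4 and 5 without UDCA pool 1+2 or control pool 5+6. With the pool number as a replicate block, 50 probe sets and 3 pathway genes passed as lower, and the member median stayed at -0.79. The cause of these changes was not tested.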
